A study of Homo sapiens with 16 samples.

Results

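10 immediate early transcription factor genes were examined across a time course of CCG-222740 in a pair of human melanoma cell lines. They were 4 Fos genes (FOS, FOSB, FOSL1 and FOSL2), JUN and JUNB, EGR1, and the nuclear receptor genes NR4A1, NR4A2 and NR4A3. The members were listed by name and matched by symbol to the Ensembl identifiers of the count files, where all 10 of 10 were found among 63677 identifiers. UACC62P is a parental melanoma line, and UACC62R is its derivative selected in 2 uM vemurafenib, a BRAF inhibitor, over 2 months and then kept in that drug per the growth description of the 0 h libraries. Cells of either line were untreated (0 h) or given 10 uM CCG-222740, a compound known to inhibit gene activation by the SRF coactivators MRTFA and MRTFB, and were collected after 2, 6 or 24 h. All cells grew in DMEM with serum and antibiotics. The growth description of the treated libraries does not mention vemurafenib, so whether treated UACC62R cells remained in it is not known. Each of the 8 groups held 2 poly(A) RNA-seq libraries, with 25.9 M to 33.3 M reads counted in genes per library. The treated libraries carry a different growth description from the 0 h libraries, and no vehicle library was used here, so the compound, its vehicle and the difference in culture cannot be told apart in a comparison with 0 h. Nothing in the labels says that the libraries of a group came from separate cultures, so a p-value here reflects the spread between libraries alone, which may be technical. In such bulk samples, a change in all cells and a change in the share of expressing cells cannot be told apart.

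Immediate early genes are transcribed within minutes of a stimulus without new protein synthesis. Many are switched on when ERK phosphorylates ternary complex factors bound with SRF at CArG boxes, or when CREB and AP-1 bind their own sites. Fos proteins do not pair with each other and bind DNA as AP-1 dimers with a Jun protein. FOSL1 (Fra-1) and FOSL2 (Fra-2) lack the strong activation domain of FOS and FOSB, while EGR1 is a zinc finger factor and the NR4A proteins are orphan nuclear receptors that act without a known hormone. In melanoma, high FOSL1 and JUN are known from cells that have lost the melanocyte programme, and the NR4A genes are known as early targets of melanocortin signalling.

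The library labelled UACC62P 2 h replicate 1 went against its label and was left out of the values below unless named. Its log2 CPM (scaled counts per 1 M reads) correlated at r = 0.976 to 0.985 with the UACC62R libraries and at 0.887 to 0.895 with the other UACC62P libraries, over 19352 genes. The summed CPM of 6 melanocyte lineage markers (MITF, SOX10, PMEL, MLANA, TYR and DCT) was 71.2 in that library, 1137 to 1450 in the other 7 UACC62P libraries and 69.2 to 80.4 in the 8 UACC62R libraries. UACC62P thus carried lineage markers of its label. In UACC62R at 0 h, MITF (53.4 and 47.6 CPM) and SOX10 (26.0 and 26.3 CPM) were present at a lower level. PMEL, MLANA, TYR and DCT were each at 0.494 CPM or less there. SOX10, at 741 to 919 CPM in the 7 UACC62P libraries, was the largest part of that sum. PMEL was low in these libraries too, at 1.26 to 3.40 CPM. The summed levels of epithelial, endothelial and blood cell markers stayed at or below 1.66 CPM in all libraries, and EPCAM, CDH1, PECAM1, CD3E and HBB did not pass the filter on low counts. The UACC62P 2 h group then had 1 library, whose spread was assumed to be that of the other groups.

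The start regions of EGR1 and JUN are printed because EGR1 was the member called at 2 h in UACC62R and JUN came next nearest to the threshold. The sequences are the 250 bases before the gene start in RefSeq (GRCh38.p14), at chr5:138465229-138465478 on the plus strand for EGR1 and chr1:58784048-58784297 on the minus strand for JUN, and capitals mark the motif matches.
EGR1: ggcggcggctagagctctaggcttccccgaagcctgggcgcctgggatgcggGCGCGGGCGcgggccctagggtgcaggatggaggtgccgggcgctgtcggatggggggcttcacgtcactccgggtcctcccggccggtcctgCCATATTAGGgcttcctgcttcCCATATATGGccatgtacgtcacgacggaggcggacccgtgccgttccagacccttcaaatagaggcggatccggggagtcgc
JUN: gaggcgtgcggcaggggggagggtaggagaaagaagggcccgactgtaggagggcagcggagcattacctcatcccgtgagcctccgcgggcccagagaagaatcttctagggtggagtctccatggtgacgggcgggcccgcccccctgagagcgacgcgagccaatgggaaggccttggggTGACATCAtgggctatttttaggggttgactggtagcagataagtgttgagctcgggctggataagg
Both strands were searched for the CArG box bound by SRF, TGACNTCA (the cyclic AMP response element type), the AP-1 site TGANTCA, the EGR site GCGNGGGCG and the NR4A monomer site AAAGGTCA. The EGR1 window held 2 CArG boxes, CCATATTAGG at 105 to 96 and CCATATATGG at 83 to 74 bases before the start, and 1 EGR site, GCGCGGGCG, at 198 to 190. The JUN window held TGACATCA at 67 to 60 bases before the start, and no match overlapped another. None of the 5 motifs had these letters in the windows of FOS, FOSB, FOSL2, JUNB, NR4A1 (2 windows) or NR4A3. Sites outside the 250 bases were not searched, so these genes may hold such motifs elsewhere. Among 35116 windows of all genes, 1.16% held a CArG box, 6.87% TGACNTCA, 6.57% TGANTCA, 8.42% GCGNGGGCG and 1.05% AAAGGTCA. FOSL1 and NR4A2 were not analysed for motifs.

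At 0 h the lines differed in all 10 genes, and the direction split the AP-1 family. FOSL1, FOSL2 and JUN were higher in UACC62R, by 2.53-fold to 3.92-fold, while FOS, FOSB, JUNB, EGR1 and the 3 NR4A genes were lower, by 1.89-fold to 13.1-fold. The test was edgeR's quasi-likelihood F test on the 15 libraries, adjusted by Benjamini and Hochberg over 20280 genes and called under 0.05. All 10 members passed the filter on low counts. Of all genes tested, 53.9% were called in this comparison, 27.8% higher and 26.1% lower in UACC62R, so a call was common, and 3 of 10 members were called higher and 7 of 10 lower. The UACC62R cells at 0 h were kept in 2 uM vemurafenib and no drug is stated for UACC62P, so the line and the drug cannot be told apart in this comparison. The members' median log2 fold change was -1.38, beside 0.02 for all genes tested. The 4 libraries of this comparison did not overlap between the lines for any member. The share of all genes without such overlap was not counted.

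FOS, the partner of Jun proteins that gave AP-1 its classical form, was at 22.7 and 20.9 CPM in UACC62P at 0 h and at 2.54 and 3.6 CPM in UACC62R. Its log2 fold change, UACC62R over UACC62P, was -2.82 ± 0.16 (standard error, edgeR adjusted p = 2.52e-09). FOSB, a close paralog of FOS, was at 6.65 and 4.97 CPM against 1.75 and 3.19 CPM, with a log2 fold change of -1.23 ± 0.28 (edgeR adjusted p = 0.00165). FOSB rested on few reads, 53 to 197 per library over the 15 libraries. FOSL1 went the other way, with 175 and 185 CPM in UACC62P and 487 and 505 CPM in UACC62R, and a log2 fold change of 1.46 ± 0.08 (edgeR adjusted p = 1.98e-09). FOSL2 was at 89.4 and 82.1 CPM against 233 and 201 CPM, 2.53-fold higher in UACC62R (edgeR adjusted p = 1.05e-06). The Fos family was therefore divided, the FOS and FOSB transcripts being higher in the parental line and the FOSL1 and FOSL2 transcripts in the resistant line.

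JUN, the Jun protein with the strongest activation of AP-1 sites, was at 26.2 and 25.2 CPM in UACC62P and at 105 and 96.8 CPM in UACC62R. The log2 fold change was 1.97 ± 0.09 (edgeR adjusted p = 1.50e-10). JUNB, which can restrain JUN in AP-1 dimers, was lower in UACC62R, at 28.1 and 23.9 CPM against 50.4 and 48.2 CPM, and had the smallest line difference of the 10 genes, -0.92 ± 0.15 (edgeR adjusted p = 0.000119). In GENCODE v29, 14.2% of the exon bases of JUNB overlap HOOK2 on the opposite strand, and the sources used here do not give the counter's strand option. Depending on that option, reads there may have been credited to the other gene or set aside as ambiguous between the 2 genes.

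EGR1, a factor that recruits its own corepressors NAB1 and NAB2, was at 76.4 and 62.2 CPM in UACC62P and at 21.7 and 19.3 CPM in UACC62R. Its log2 fold change was -1.76 ± 0.19 (edgeR adjusted p = 2.55e-06). NR4A1 (Nur77) had the largest difference of the 10 genes, 79.5 and 61.5 CPM against 6.07 and 4.73 CPM, or -3.71 ± 0.22 (edgeR adjusted p = 3.33e-09). For NR4A1, 10.3% of the exon bases overlap a long noncoding RNA on the opposite strand, with the same limit as for JUNB. NR4A2 (Nurr1) was at 42.1 and 35.4 CPM against 15.8 and 11.3 CPM, and NR4A3 (NOR1) at 11.3 and 8.47 CPM against 2.04 and 1.66 CPM. Their log2 fold changes were -1.52 ± 0.23 for NR4A2 (edgeR adjusted p = 6.60e-05) and -2.42 ± 0.24 for NR4A3 (edgeR adjusted p = 1.07e-06). All 3 receptors were thus lower in UACC62R at 0 h.

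**Figure D1:**
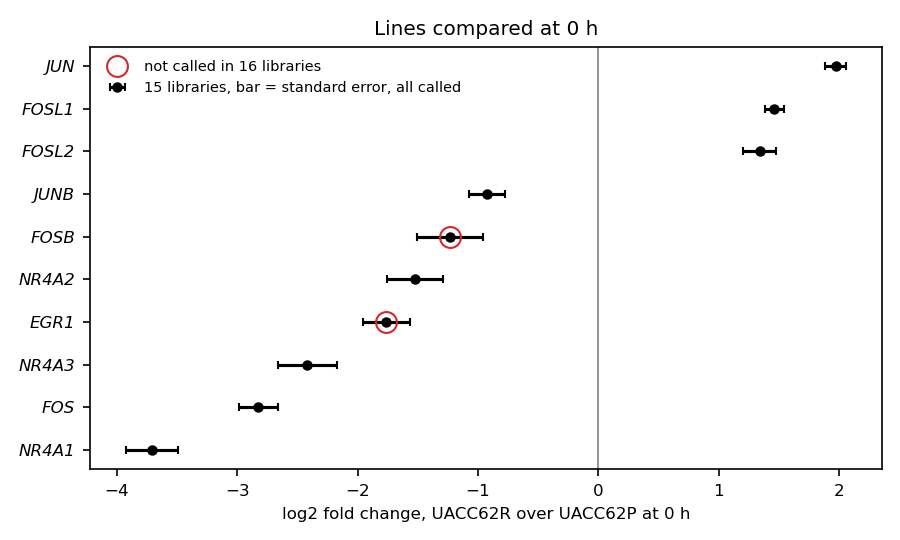
Log2 fold change of each gene in UACC62R over UACC62P at 0 h (x axis, points with standard errors, 15 libraries), ordered by value. JUN, FOSL1 and FOSL2 lie to the right of 0 and the other 7 genes to the left, and red rings mark FOSB and EGR1, whose calls were lost when the library labelled UACC62P 2 h replicate 1 was kept.

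The 10 line differences kept their direction in each fit that left out 1 library of the 0 h groups. For JUNB, the smallest in the full fit, the log2 fold change was -1.05 to -0.81 over these fits. When the library labelled UACC62P 2 h replicate 1 was kept, 8 of 10 were called, beside 40.5% of the genes tested, and FOSB (edgeR adjusted p = 0.072) and EGR1 (0.0552) were not. Across all 15 libraries and times, the levels of the lines did not overlap for 8 of the 10 genes. FOSL1 overlapped because UACC62R fell to 227 CPM at 24 h, below the 232 CPM of UACC62P at 2 h. NR4A3 overlapped because UACC62P came down to 3.0 CPM at 24 h, below the highest UACC62R value of 3.14 CPM. In the other 8 genes the libraries of the lines thus stayed apart through treatment. For FOSB the gap was small, from 4.74 CPM, the highest UACC62R value, to 4.80 CPM, the lowest of UACC62P. How many of all genes separate in this way was not counted. Of all genes tested, 53.9% were called between the lines at 0 h.

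In the library labelled UACC62P 2 h replicate 1, all 10 genes lay outside the range of the other UACC62P libraries. FOS was at 3.14 CPM, FOSL1 at 293 CPM, JUN at 91.8 CPM and NR4A1 at 4.61 CPM, each within the UACC62R range. In 8 of 10 genes the value lay within that range. JUNB (20.4 CPM) and EGR1 (14.99 CPM) lay below its lowest values of 21.5 and 19.3 CPM. This library was scaled with factors from all 16 libraries, and those of the ranges with factors from the 15. Whether the small gap of JUNB rests on that scaling was not tested. The share of all genes inside or outside these ranges was not counted. With that library kept, the UACC62P 2 h log2 fold change of JUN over 0 h went from 0.46 to 1.3, that of EGR1 from 0.86 to 0.03, and that of FOS from 0.36 to -0.48.

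In UACC62R, EGR1 rose 2.54-fold at 2 h of compound, and by 24 h FOSL1 and JUN had fallen below 0 h while NR4A2 had risen. At 2 h EGR1 was the 1 member called, beside 0.0740% of all genes tested. At 6 h no member was called by edgeR, beside 0.666% of all genes, and 0 were called by DESeq2. There 3 members had an unadjusted edgeR p under 0.05, as did 1844 of the 20280 genes tested. At 24 h 3 members were called, beside 14.7% of all genes. The members' median log2 fold change over 0 h was 0.53 at 2 h, 0.23 at 6 h and 0.24 at 24 h, where the medians of all genes lay within 0.01 of 0.

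EGR1 in UACC62R was at 60.7 and 43.2 CPM at 2 h, at 32.3 and 25.4 CPM at 6 h and at 33.8 and 24.4 CPM at 24 h, from 21.7 and 19.3 CPM at 0 h. Both 2 h libraries lay above all other UACC62R libraries, and no treated library fell to the 0 h values. The log2 fold change at 2 h was 1.34 ± 0.19 (edgeR adjusted p = 0.0139). That call was lost in 3 of the 4 fits that left out a library of these groups, without either 0 h replicate or without 2 h replicate 1. Over all 4 of these fits the log2 fold change was 1.06 to 1.58. Libraries with the same replicate number deviated together, and with the replicate number as a block EGR1 was also called at 6 h (0.49 ± 0.10, adjusted p = 0.0106) and at 24 h (0.50 ± 0.10, adjusted p = 0.00115).

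FOSL1 in UACC62R was at 551 and 548 CPM at 2 h, at 544 and 492 CPM at 6 h and at 258 and 227 CPM at 24 h. The 2 h libraries lay above both 0 h libraries and the 6 h libraries overlapped them, neither time being called, and both 24 h libraries were below every other UACC62R library. The log2 fold change at 24 h over 0 h was -1.04 ± 0.08, or 2.05-fold lower (edgeR adjusted p = 4.17e-06). It remained called without any 1 library of these groups and in the 16 libraries (-1.04, adjusted p = 0.00411). JUN, which binds DNA as a partner of FOSL1, was at 144 and 137 CPM at 2 h, at 125 and 119 CPM at 6 h and at 73.5 and 66.4 CPM at 24 h. It therefore lay above both 0 h libraries at 2 and 6 h and below them at 24 h. At 2 h its log2 fold change of 0.48 ± 0.08 missed the threshold (edgeR adjusted p = 0.0502) and passed it with the replicate block (adjusted p = 0.00039) and with DESeq2 (adjusted p = 0.000612). At 6 h it was 0.28 ± 0.08 (edgeR adjusted p = 0.208; with the block 0.0144), and at 24 h JUN fell by 0.53 on the log2 scale (edgeR adjusted p = 0.000716), a call that no left-out library of these groups removed.

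NR4A2 in UACC62R was at 12.9 and 9.67 CPM at 2 h, at 20.2 and 13.5 CPM at 6 h and at 28.4 and 18.8 CPM at 24 h. Its 24 h libraries were above both 0 h libraries, with a log2 fold change of 0.80 ± 0.23 (edgeR adjusted p = 0.0324). The call was lost without 0 h replicate 2 (0.58, adjusted p = 0.271) or 24 h replicate 1 (0.46, adjusted p = 0.319). NR4A1 was at 9.77 and 6.39 CPM at 2 h, at 8.72 and 6.33 CPM at 6 h and at 5.03 and 3.76 CPM at 24 h, with 0 h and 2 h libraries that did not overlap and no call over 0 h (2 h 0.59 ± 0.23, edgeR adjusted p = 1.00). NR4A3 was at 2.94 and 2.61 CPM, then 3.14 and 2.50 CPM, then 2.60 and 2.36 CPM, each library above the 2.04 and 1.66 CPM of 0 h and none of the 3 times called (log2 fold changes 0.59, 0.61 and 0.42).

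The other 4 genes had no call over 0 h in UACC62R. FOS was at 5.06 and 5.33 CPM at 2 h, at 3.88 and 3.08 CPM at 6 h and at 3.64 and 3.55 CPM at 24 h, and both 2 h libraries exceeded all other UACC62R libraries (0.75 ± 0.17, edgeR adjusted p = 0.308). FOSB ranged over treated libraries from 2.44 to 4.74 CPM, FOSL2 from 170.4 to 259 CPM and JUNB from 21.5 to 36.5 CPM. The largest of the log2 fold changes of these 3 genes was 0.66 ± 0.28, for FOSB at 2 h (edgeR adjusted p = 1.00).

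In UACC62P no member was called at 2 h, JUN rose and NR4A3 fell at 6 h, and at 24 h FOSL1 and NR4A3 had fallen and EGR1 had risen. The 2 h comparison, with 1 library at 2 h, also had no member called by DESeq2, and edgeR called 0.0444% of all genes. At 6 h 2 members were called, beside 1.52% of all genes, and at 24 h 3 members, beside 3.85%. With the replicate block the members called were 2 at 2 h, 5 at 6 h and 6 at 24 h, but the background rose as well, to 0.148%, 6.98% and 12.1% of all genes. In UACC62R the block gave 2, 2 and 4 members, beside 0.365%, 2.79% and 24.2% of all genes. The members' median log2 fold change in UACC62P was 0.16, -0.11 and -0.20 at 2, 6 and 24 h, with medians of all genes between -0.01 and 0.

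EGR1 in UACC62P was at 126 CPM in the 1 library at 2 h, at 100.5 and 98.4 CPM at 6 h and at 145 and 112 CPM at 24 h, all above the 76.4 and 62.2 CPM of 0 h. Its log2 fold change was 0.86 ± 0.22 at 2 h (edgeR adjusted p = 0.69), 0.52 ± 0.18 at 6 h (0.198) and 0.89 ± 0.18 at 24 h (0.0153). With the block all 3 times were called (adjusted p = 0.000113, 0.00116 and 3.09e-06). The 24 h call was lost without 0 h replicate 2 (0.75, adjusted p = 0.162) or 24 h replicate 1 (0.70, adjusted p = 0.196). JUN was at 35.3 CPM at 2 h, at 35.2 and 34.3 CPM at 6 h and at 22.9 and 20.5 CPM at 24 h. As in UACC62R, JUN lay above 0 h at 2 and 6 h and below it at 24 h. The 6 h rise was 0.43 ± 0.09 (edgeR adjusted p = 0.0223) and was not called without any 1 of the 4 libraries (adjusted p up to 0.183). The block added calls at 2 h (0.50, adjusted p = 0.0134) and 24 h (-0.25, adjusted p = 0.028), where the fit without it gave adjusted p = 0.589 and 0.149.

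NR4A3 in UACC62P was at 9.23 CPM at 2 h, at 4.99 and 5.21 CPM at 6 h and at 3.0 and 4.88 CPM at 24 h, from 11.3 and 8.47 CPM. These values rest on 88 to 327 reads per library. It fell by 0.96 on the log2 scale at 6 h (edgeR adjusted p = 0.0493) and by 1.33, or 2.52-fold, at 24 h (edgeR adjusted p = 0.00449). The 6 h call was lost without any 1 of the 4 libraries, and the 24 h call without 0 h replicate 1 (-1.11, adjusted p = 0.056) or 24 h replicate 1 (-1.01, adjusted p = 0.0861). NR4A1 was at 58.6 CPM at 2 h, at 62.3 and 51.5 CPM at 6 h and at 57.4 and 53.6 CPM at 24 h, and was called with the block alone (6 h -0.30, adjusted p = 0.0448; 24 h -0.33, adjusted p = 0.0199; without it 0.503 and 0.354). NR4A2, at 33.1 CPM, then 50.3 and 39.7 CPM, then 49.0 and 42.4 CPM, was not called at any time in UACC62P.

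FOSL1 in UACC62P was at 232 CPM at 2 h, at 186 and 206 CPM at 6 h and at 134 in each library at 24 h, below every earlier library. It fell by 0.43 on the log2 scale at 24 h (edgeR adjusted p = 0.0099), a call lost without 0 h replicate 2 or either 24 h replicate (log2 fold changes -0.47 to -0.38 over the left-out fits, adjusted p up to 0.13). FOS was at 28.1 CPM at 2 h, at 14.8 and 16.3 CPM at 6 h and at 15.1 and 16.2 CPM at 24 h. Its 6 and 24 h libraries lay below both 0 h libraries, with log2 fold changes of -0.49 ± 0.14 and -0.48 ± 0.14 that were not called (edgeR adjusted p = 0.115 and 0.0828) and that the block called (0.0266 and 0.0201). DESeq2 called the 24 h value of FOS as well (-0.48, adjusted p = 0.0453). FOSB, between 4.80 and 7.77 CPM in treated libraries, FOSL2, between 73.2 and 85.3 CPM, and JUNB, between 38.6 and 47.9 CPM, had no call in UACC62P under either fit.

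**Figure D2:**
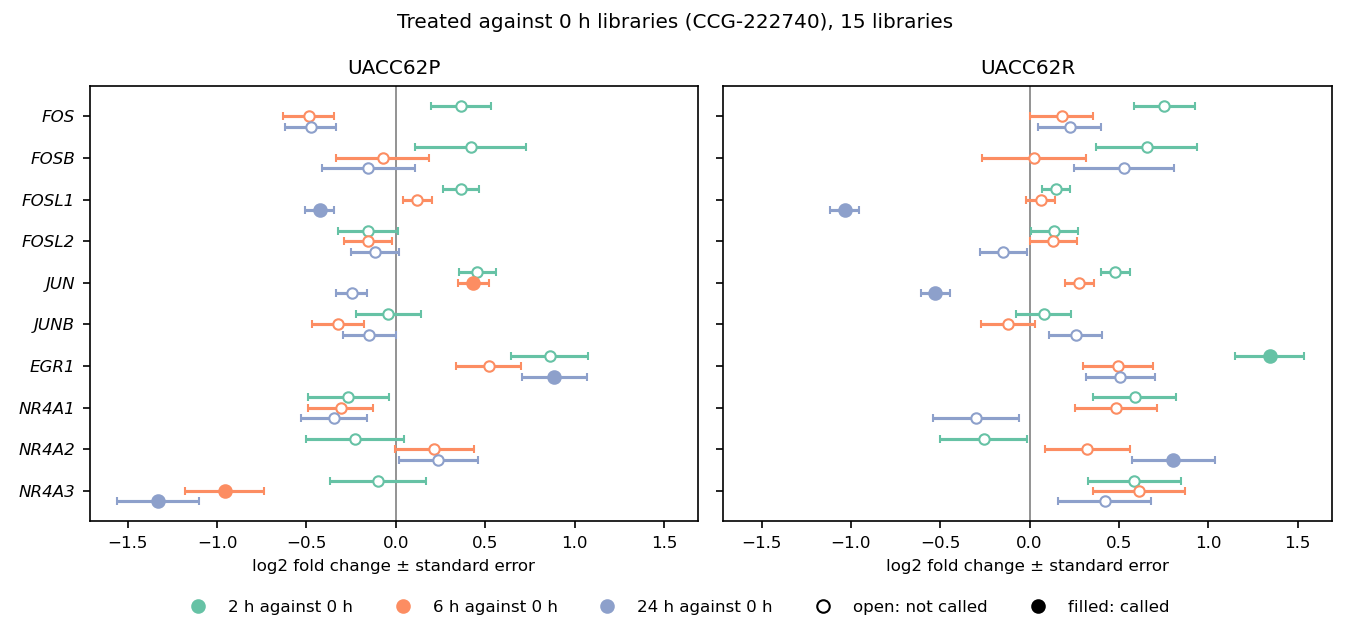
Log2 fold change over 0 h (x axis, points with standard errors, 15 libraries) of each gene at 2, 6 and 24 h in UACC62P (left) and UACC62R (right), with filled points called. EGR1 has positive values in every comparison, FOSL1 has its lowest value at 24 h in both lines, and NR4A3 is negative at each time in UACC62P and positive in UACC62R.

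The comparison of 24 h with 2 h stayed within the treated libraries, which share 1 growth description. In UACC62R 6 of the 10 members were called, beside 14.6% of all genes tested. FOSL1 fell by 1.18 on the log2 scale (edgeR adjusted p = 2.21e-06), JUN by 1.01 (9.67e-06), NR4A1 by 0.89 (0.0215), EGR1 by 0.84 (0.00905) and FOS by 0.53 (0.0496), while NR4A2 rose by 1.06 ± 0.24 (0.00873). The FOSL1 and JUN calls held without any 1 library of these groups. EGR1 and NR4A1 were lost without 2 h replicate 1 (-0.56 and -0.54) or 24 h replicate 2 (-0.62 and -0.69), NR4A2 without 2 h replicate 2 (0.85) or 24 h replicate 1 (0.72), and FOS without any 1 of the 4 libraries. The block also called FOSL2 (-0.29, adjusted p = 0.0277; 0.174 without it), beside 24.5% of all genes.

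In UACC62P 3 members were called between 2 and 24 h, beside 0.838% of all genes. FOSL1 fell by 0.79 on the log2 scale (edgeR adjusted p = 0.00217), JUN by 0.70 (0.00747) and FOS by 0.84 (0.0338), each against the 1 library at 2 h. FOS was lost without either 24 h replicate, and JUN without 24 h replicate 2 (-0.63, adjusted p = 0.0519). NR4A3 missed the threshold (-1.23 ± 0.27, edgeR adjusted p = 0.0521) and was called with the block (adjusted p = 0.00897, beside 3.57% of all genes) and with DESeq2 (0.0112). With the library labelled UACC62P 2 h replicate 1 kept, FOSL1 was the 1 member called in this line (-0.97, adjusted p = 0.0257; 0.134% of all genes), and FOS went to 0.01 (adjusted p = 0.996). In those 16 libraries FOSL1 was also the 1 member called in UACC62R at 24 h, over 2 h (1.10% of all genes) and over 0 h (1.78%). The library labelled UACC62P 2 h replicate 1 held FOSL1 within the UACC62R range, which raised the mean of its labelled group, so the UACC62P call that includes it adds no support.

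The response over 0 h differed between the lines in 2 genes at 24 h, by the interaction term of the same fit. FOSL1 had a further change of -0.61 ± 0.11 in UACC62R (edgeR adjusted p = 0.0299), and NR4A3 a difference of 1.75 ± 0.34 (edgeR adjusted p = 0.0404), from -1.33 in UACC62P and 0.42 in UACC62R. At 24 h 0.562% of all genes were called for this difference. Each of the 2 calls was lost in 7 of the 8 fits that left out 1 library; the 2 held, respectively, without UACC62R 24 h replicate 1 and without UACC62P 24 h replicate 2. At 2 h no member and 0% of all genes were called, and DESeq2 also called no member. At 6 h no member was called by edgeR or DESeq2, beside 0.00493% of all genes. There 3 members had an unadjusted edgeR p under 0.05, as did 951 of the 20280 genes tested. The block added NR4A1 at 6 h (0.78 ± 0.16, adjusted p = 0.0466; 0.997 without it; 0.212% of all genes) and NR4A2 at 24 h (0.56 ± 0.14, adjusted p = 0.0308; 0.567 without it; 4.05% of all genes). For EGR1 the difference was 0.48 ± 0.29 at 2 h and -0.38 ± 0.27 at 24 h, neither called, which does not show that the responses were alike.

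The genes that work with these factors were read from lists of the same pathway. At 0 h, 5 of the 9 tested other AP-1 and bZIP partners differed between the lines, 3 higher and 2 lower in UACC62R (median log2 fold change 0.29, beside 0.02 for all genes). That share is near the 53.9% of all genes called, with 27.8% higher and 26.1% lower, and the counts of the lists below are to be read against the same shares. BATF3 was lower (-2.94 ± 0.24, edgeR adjusted p = 1.46e-07), as was the stress factor ATF3 (-1.34 ± 0.24), and MAFG (0.75 ± 0.09) and MAFK (0.36 ± 0.12) were higher. JUND, the Jun gene that is expressed without a stimulus, had a value of 0.29 ± 0.18 (edgeR adjusted p = 0.201). Of 5 other EGR genes and EGR corepressors tested, 3 were lower and none higher in UACC62R (median -0.84). They were EGR2 (-1.35 ± 0.24, edgeR adjusted p = 0.000312) and the EGR1 corepressors NAB1 (-0.54) and NAB2 (-0.73), while EGR3 was at -0.84 ± 0.38 (0.0809). Of the retinoid X receptors, with which NR4A1 and NR4A2 can form dimers, RXRA (0.37) and RXRB (0.36) were higher in UACC62R. RXRG had 3887 and 3186 reads in UACC62P at 0 h and 2 reads in each UACC62R library.

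Among SRF, its coactivators and the ternary complex factors, 2 of 6 were higher and 1 lower in UACC62R at 0 h (median 0.19). MRTFA, the coactivator whose signalling the compound is known to block, was higher by 0.97 ± 0.09 (edgeR adjusted p = 6.75e-07), and MRTFB by 0.81 ± 0.16 (0.000562). ELK4 was lower (-0.26, adjusted p = 0.0413), and SRF itself was at 0.21 ± 0.09 (0.0587). Of 21 other immediate early genes, 13 were higher and 5 lower (median 0.69), in contrast to the 3 and 7 of the 10 members. CCN1 (3.22 ± 0.14) and CCN2 (2.42 ± 0.13), matricellular genes that MRTF and YAP are known to drive, and CSRNP1 (2.68 ± 0.13) were among the higher ones, as was IER2 (0.41 ± 0.11). MYC (-2.44 ± 0.11) was lower. Of 9 known AP-1 target genes 8 were higher and none lower (median 2.06), among them CXCL8 (4.55 ± 0.27), PLAUR (2.06 ± 0.14) and CCND1 (1.86 ± 0.13). MMP3 had 7 and 0 reads in UACC62P at 0 h and 119 and 144 in UACC62R (5.05 ± 0.57). MMP9 of that list, named after its values were seen, had 0 reads in UACC62P at 0 h and 55 in UACC62R, at least 17.6-fold higher against a floor of 3 reads over the group, and at that bound the list's median was also 2.06. Of 6 ERK feedback genes 3 were lower, SPRY4 the most (-2.31 ± 0.23), and none higher (median -0.23). Of the 9 genes listed as upstream kinases and CREB, 4 were higher, MAPK7 the most (1.04 ± 0.15), and 1 lower (median 0.06).

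At 24 h of compound in UACC62R, 1 of the 21 other immediate early genes rose and 6 fell (median -0.28, beside 0.01 for all genes), where 14.7% of all genes tested were called. CCN1 fell by 2.16 on the log2 scale (edgeR adjusted p = 7.86e-07), CCN2 by 1.69 (2.68e-06), MYC by 0.66 and IER2 by 0.48 (0.011), while TRIB1 rose by 0.87 (0.00298). SRF fell by 0.48 (0.00255) and MRTFA by 0.31 (0.0368), the 2 calls among the 6 genes of that list (median -0.09), and MRTFB was at -0.01 ± 0.15. Of the 9 AP-1 target genes 4 rose and none fell (median 0.43): MMP1 (1.42 ± 0.31), MMP3 (1.23 ± 0.34), CD44 (0.54 ± 0.07) and TIMP1 (0.43 ± 0.13). These rises ran beside the falls of FOSL1 and JUN. Of 6 ERK feedback genes SPRY4 (0.84) and SPRY2 (0.65) rose and none fell (median 0.42), and RPS6KA3 rose and MAPK8 fell among the 9 genes of the kinase list (0.34 and -0.42; median 0.03). No other AP-1 partner or EGR gene was called at 24 h, EGR2 being at 0.40 ± 0.25, EGR3 at 0.44 ± 0.39, ATF3 at -0.39 ± 0.26 and JUND at 0.41 ± 0.18.

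PER1, a clock gene that is also induced early, was the 1 gene of the 21 called at 2 h in either line. It was at 7.62 CPM in UACC62P at 2 h from 2.31 ± 0.310 CPM (SD, n = 2) at 0 h, and at 13.0 ± 2.99 CPM from 5.53 ± 1.13 CPM in UACC62R. Its log2 fold changes in UACC62P were 1.72 at 2 h (edgeR adjusted p = 0.0308), 1.56 at 6 h (0.00267) and 0.99 at 24 h (0.0271), and in UACC62R 1.24 at 2 h (0.0297), with no call at 6 h (0.77, 0.123) or 24 h (0.52, 0.0978). At 24 h in UACC62P, CCN1 fell by 0.97 (0.00322) and IER3 rose by 0.36 (0.0421), the only other calls among the 21 genes in that comparison. The 24 h response differed between the lines in CCN1 (-1.19 ± 0.20), CCN2 (-1.20 ± 0.18) and KLF10 (-0.58 ± 0.11) of that list.

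**Figure D3:**
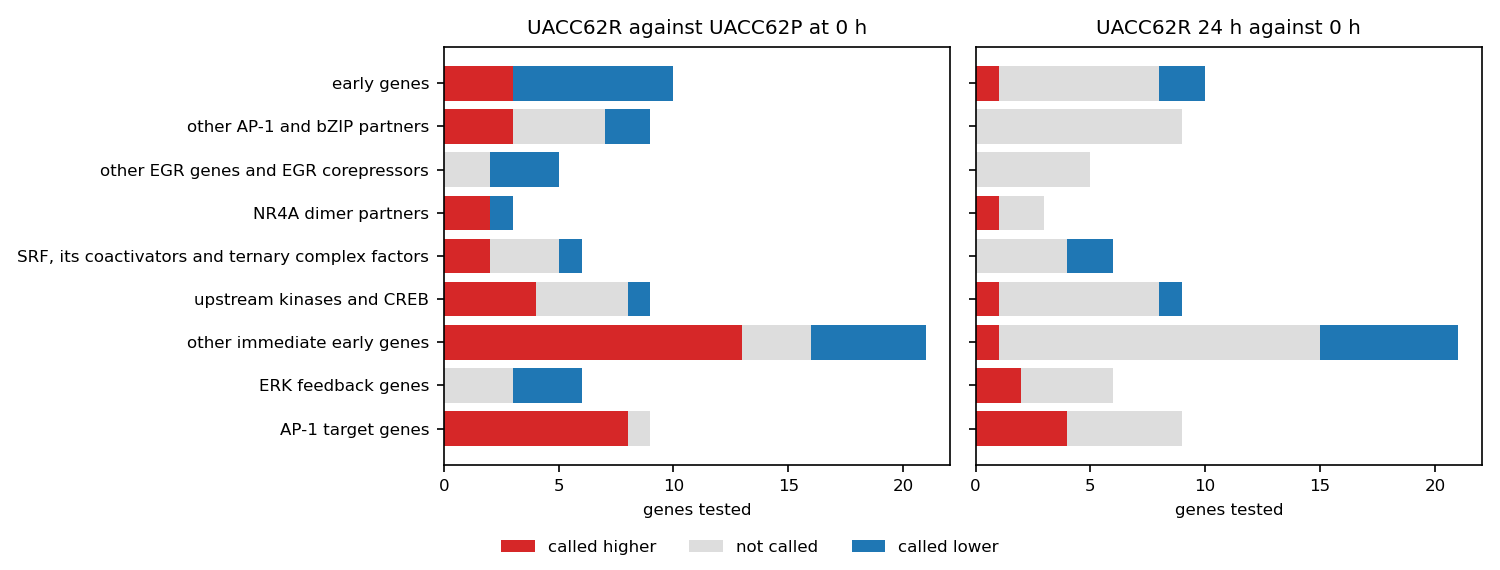
Number of genes tested in each list (x axis) that were called higher (red), called lower (blue) or not called (grey) in UACC62R against UACC62P at 0 h (left) and in UACC62R at 24 h against 0 h (right). In the left panel the early genes are 3 higher and 7 lower and the AP-1 target genes 8 higher, and in the right panel the other immediate early genes are 1 higher and 6 lower.

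How the members varied together was described by Pearson's r of log2 CPM over the 15 libraries after the mean of each line was taken away. The libraries share lines, times and replicate numbers, so these values have no test. FOSL1 and JUN moved most closely (r = 0.907), then FOSL2 and NR4A1 (0.885) and FOS and FOSB (0.753). FOSL1 and NR4A2 ran in opposite directions (-0.667). EGR1 was not close to any member, its highest value being 0.397 with NR4A1. Within groups of 2 libraries, replicate 1 lay above replicate 2 in all 3 such UACC62P groups and all 4 UACC62R groups for JUN, EGR1, NR4A1 and NR4A2, and in all 4 UACC62R groups also for FOSL2, JUNB and NR4A3. The spread within groups was thus shared between these genes, and its part in their correlations was not tested.

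By the same measure over 10394 genes, FOSL1 was closest to MIRLET7BHG (0.976) and TPM3 (0.964), which encodes a tropomyosin. JUN was closest to SPATS2L (0.931) and FBXO45 (0.924), and EGR1 to ZNF470 (0.882) and MPLKIP (0.814). NR4A1 was closest to HK1 (0.897) and LRRFIP1 (0.896), NR4A2 to RALGDS (0.957) and ITPR1 (0.953), NR4A3 to HSPA2 (0.863) and PHACTR1 (0.847), and FOS to YBX1 (0.826) and UBE2E3 (0.803).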

How the data were processed

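Poly(A) RNA of 16 libraries was sequenced as single reads with a stranded kit, per the labels. Tools named in the submitters' processing notes are HTSeq 0.6.1, HISAT2 2.1.0, Trimmomatic 0.33, FastQC 0.11.5 and bcl2fastq 2.19.0 (listed without an order), with build hg19. The deposited values are raw counts per Ensembl gene; the 5 summary lines of the counter were left out. Counts were scaled by TMM, filtered with filterByExpr and tested in 1 fit of 15 libraries with edgeR 4.0.16 (R 4.3.3; 7 residual degrees of freedom; 20280 genes), standard errors being the log2 fold change divided by the root of F. The steps were checked on simulated counts. Alternatives were 16 libraries, a replicate block, DESeq2 1.42.0, library size scaling, no filter, and leaving out each library. Deviations of same-numbered libraries correlated in all 21 pairs of groups (r = 0.174 to 0.718 over 8273 genes). The block therefore took the numbers to pair libraries, from these data and not from a label. The main fit held no term for this pairing. The members and lists were chosen with earlier results of these data known. All members were named; of other lists, up to 4 called genes by size of change (average log2 CPM not under 0) and 8 preset genes, and the 2 genes most like each member with a call over time. A comparison with 0 h and one with 2 h in the same line share libraries.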

Additional observations from a re-analysis of the deposited data

Results flagged for a closer look

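Differences between the lines in the 24 h response were called for 2 members. FOSL1 had an interaction term of -0.61 (log2, UACC62R minus UACC62P; edgeR adjusted p = 0.0299), from -0.43 in UACC62P and -1.04 in UACC62R. NR4A3 had 1.75 (adjusted p = 0.0404), from -1.33 and 0.42. Over the fits that left out 1 library, the values were -0.72 to -0.52 for FOSL1 and 1.42 to 2.14 for NR4A3, each with the same sign and each called in 1 of 8.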

How the results depend on the processing

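Of 120 pairs of a member and a comparison, 30 were called, and 15 of those were called in every fit without 1 library. All 30 kept their direction and call with DESeq2 and with the replicate block, which ended no call and changed no other call than the additions given above. Library size scaling ended 2 calls, omitting the low-count filter 1, and keeping all 16 libraries 18 with the direction kept. The 16 libraries also ended 1 more, FOS in UACC62P at 24 h over 2 h, which reversed to 0.0085. The number of members called moved as follows. In the 16 libraries it was 0 in UACC62P at 6 h and at 24 h over 0 h, 0 in UACC62R at 2 h, 1 in UACC62R at 24 h, 0 for the difference at 24 h, and 1 for 24 h over 2 h in each line; the common dispersion was 0.0622 there and 0.00985 in 15 libraries. With the block it was 2 and 5 and 6 in UACC62P at 2, 6 and 24 h, 2 in UACC62R at 2 and at 6 h, and 1 for the difference at 6 h. DESeq2 gave 2 in UACC62R at 2 h; library size scaling 1 in UACC62P at 6 h and 2 in UACC62R at 2 h; no filter 1 in UACC62P at 2 h, 4 in UACC62R at 2 h, 1 in UACC62R at 6 h and 2 for the difference at 6 h. Without 1 library each, the count was 0 in UACC62P at 6 h, 0 to 2 in UACC62P at 24 h, 0 to 1 in UACC62R at 2 h, 2 to 5 in UACC62R at 24 h, 0 to 1 for the difference at 24 h and 3 to 5 in UACC62R for 24 h over 2 h, where the full fit gave 2, 3, 1, 3, 2 and 6. The background moved too. In UACC62R at 2 h, 10 of all 20280 genes tested were called higher and 5 lower in the full fit. Without the filter these were 80 and 43 of 35573, and with DESeq2 25 and 10 of 17726. At 6 h in UACC62R they were 77 and 58 in the full fit and 272 and 179 without the filter. The counts of the left-out fits are given without their background. Fewer of all genes were called in most of these fits too, so the lower counts are not particular to the members. Apart from the fewer samples in the left-out fits, the cause of these moves was not tested. Library size scaling moved the median of all genes at 0 h between the lines to 0.10, and no member changed direction. The fit cannot show small changes in FOS, FOSB and NR4A3 in UACC62R, which had 53 to 146 reads per library.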
